A study of Bos taurus with 8 samples.

Results

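S100 proteins are small calcium-binding proteins with paired EF-hand loops that work mostly as dimers, inside the cell by binding target proteins and, once released, as signals to cell-surface receptors such as RAGE. In cartilage, *S100A1* and *S100B* are long-used markers of the chondrocyte, are induced by the SOX trio (*Sox9*, *Sox5* and *Sox6*), and are known to restrain terminal differentiation. Here the mRNA levels of 8 S100 genes, chosen by name (*S100A1*, *S100A4*, *S100A6*, *S100A10*, *S100A11*, *S100A13*, *S100A16* and *S100B*), were compared between the zones of bovine articular cartilage. Of the 24596 genes in the count table, 7 carried one of these names, and all 7 were among the 12857 genes with enough counts to test. *S100A6* was not matched to a row and is not analysed here.

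The cells were wild-type chondrocytes from the knee joints of calves 1 to 2 weeks old. Superficial zone chondrocytes (SZCs) came from the outermost slice of each cartilage core and deep zone chondrocytes (DZCs) from the lowest slice, with the tissue between them discarded. Both were freed from the matrix by enzymes and kept in serum-containing medium for 3 days without any added factor, so the levels are those of cultured cells. Each zone had 2 RNA-Seq libraries, described in the study as biological duplicates, and slices were collected by joint.

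Library totals lay between 19918970 and 21890549 counts. Levels are given as TMM-normalized values, counts scaled to a common library size after edgeR's correction for composition (CPM), and 3 counts corresponded to between 0.129 and 0.187 CPM. The zone labels were borne out by *Prg4*, the gene of lubricin, at 3166 and 2024 CPM in SZCs and 15.3 and 61.5 CPM in DZCs. All 9 genes of a chondrocyte marker list were tested and detected. Of these, 8 (88.9%) had a negative log2 fold change, SZC over DZC, against 53.4% of all tested genes. The median of the 9 was -1.10. Their summed level was 120698 and 123331 CPM in SZCs and 485961 and 188474 CPM in DZCs. Of the 9, the matrix gene *Matn3* alone was called by the exact test of edgeR (log2 fold change -2.04, FDR 0.00212). The quasi-likelihood test of edgeR called 0 of the 9 and DESeq2 called 2. DZC replicate 1 stood apart. The major cartilage collagen gene *Col2a1* took 24.5% of the counts in that library, against 6.31% to 12.9% in the other libraries, and the TMM factor of the library was 0.735 against 1.08 to 1.14. In bulk RNA, fewer cells of a type and less RNA per cell cannot be told apart.

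One of the 7 S100 genes tested, *S100A13*, differed between SZCs and DZCs at an FDR (Benjamini–Hochberg adjusted p over all tested genes) below 0.05 in the exact test of edgeR, and it was higher in DZCs. FDR values below come from that test unless another is named. Among all tested genes 2.93% passed in either direction, 0.700% higher in DZCs and 2.23% higher in SZCs. No S100 gene was called higher in SZCs by that test, and *S100A4* alone had an unadjusted p below 0.05 in that direction. DESeq2 also called only *S100A13*, while the quasi-likelihood test of edgeR called 0 of the 7, with *S100A13* alone at an unadjusted p below 0.05. The median log2 fold change, SZC over DZC, was -0.59 for the 7 genes and -0.04 over all tested genes, and 5 of the 7 (71.4%) were negative against 53.4% of all tested genes. SZC and DZC libraries did not overlap for 3 of the 7 genes, a share close to the 41.5% found over all tested genes.

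**Figure D1:**
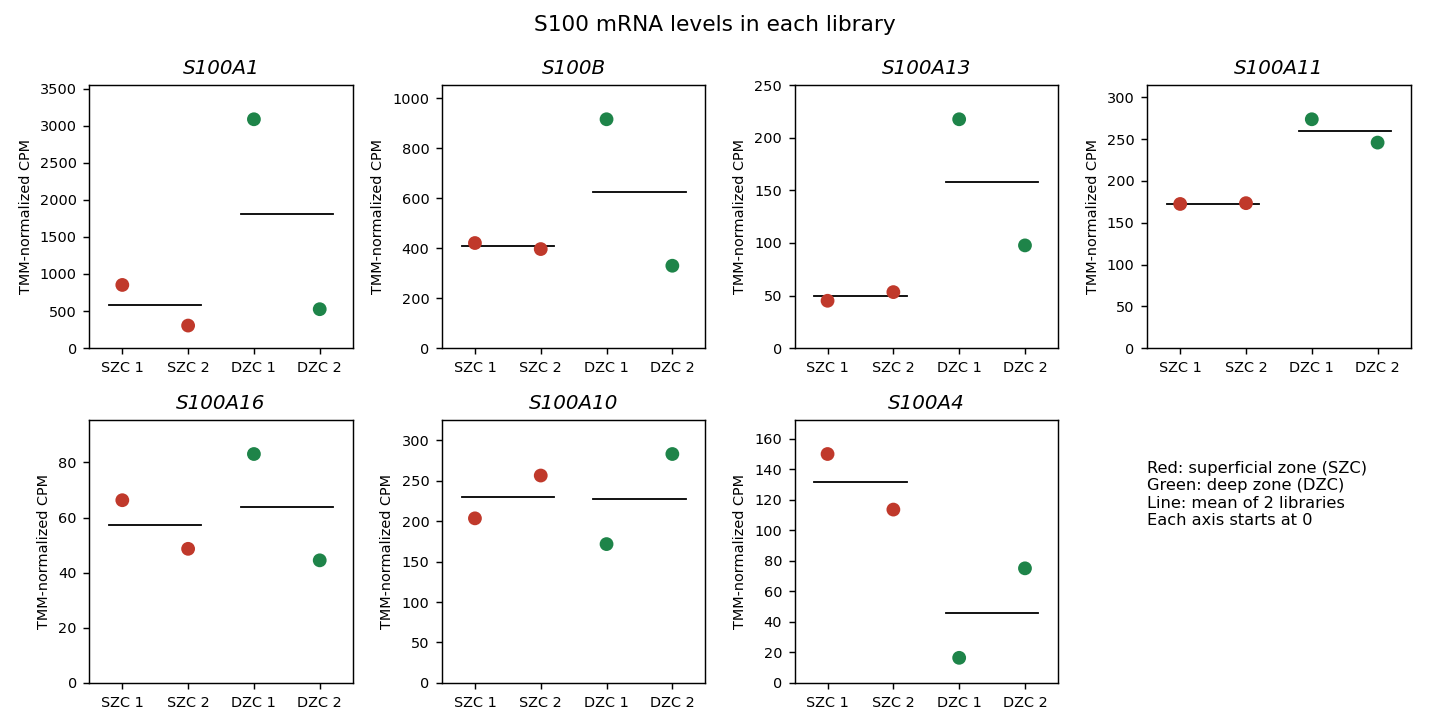
TMM-normalized CPM (vertical axes, each from 0) of the 7 S100 genes in the 2 SZC libraries (red) and the 2 DZC libraries (green), with the zone mean as a line. DZC replicate 1 is the highest or lowest library in every panel, for example 3086 CPM of *S100A1* and 16.4 CPM of *S100A4*.

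*S100A13* encodes a protein needed for the release of FGF1 and interleukin-1α by a route that bypasses the usual secretory pathway. Its SZC libraries had 45.0 and 53.3 CPM (991 and 1236 counts) and its DZC libraries 218 and 97.7 CPM (3498 and 2179 counts). Both DZC libraries lay above both SZC libraries, and the SZC pair was tight while the DZC pair differed 2.23-fold. The zone means were 49.1 ± 5.82 CPM in SZCs and 158 ± 84.8 CPM in DZCs (SD, n = 2). This 3.21-fold higher level in DZCs was a log2 fold change, SZC over DZC, of -1.68 with a standard error (SE) of 0.48 and an FDR of 0.0278. The call was not kept by every analysis, since the FDR was 0.335 in edgeR's quasi-likelihood test and 0.0798 with scaling by library totals alone. The log2 fold change was -0.99 without DZC replicate 1 (FDR 0.0146), -2.13 without DZC replicate 2 (FDR 1.49e-11), -1.57 without SZC replicate 1 (FDR 1) and -1.81 without SZC replicate 2 (FDR 0.566). In each of these fits the lone library of a zone is assumed to vary as the pair of the other zone does, so the FDR is set by the tight SZC pair or the wide DZC pair. The chondrocyte marker sum, to which *Col2a1* gave more than any other gene, was likewise higher in both DZC libraries and highest in DZC replicate 1. Without *Col2a1* the other 8 genes summed to 55718 and 67815 CPM in SZCs and 152756 and 69545 CPM in DZCs, so DZC replicate 2 was close to SZC replicate 2. *Acan* and *Hapln1* were lower in DZC replicate 2 than in both SZC libraries. The part of these markers in the levels of *S100A13*, *S100A1* and *S100B* was not tested.

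Of the partners whose export *S100A13* assists, *Fgf1* had at most 20 counts and *Il1a* at most 1 count in any library, too few to test.

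*S100A1*, whose protein regulates calcium handling in muscle as well as marking chondrocytes, took the most reads of the 7 genes in DZC replicate 1. It was at 852 and 304 CPM in SZCs and at 3086 and 525 CPM in DZCs. SZC replicate 1 lay above DZC replicate 2, so the zones overlapped, and the 2 DZC libraries differed 5.88-fold. Between zones the log2 fold change was -1.64 (SE 0.88, FDR 0.666), with a 95% interval from -3.37 to 0.09. The size of this difference rested on DZC replicate 1. Without that library the log2 fold change was 0.14 (FDR 0.985), and without DZC replicate 2 it was -2.40 (FDR 1.15e-05 by edgeR, with the lone DZC library assumed to vary as the SZC libraries do).

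*S100B*, the other chondrocyte S100 gene and a ligand of RAGE, was even in SZCs and uneven in DZCs. SZC libraries had 420 and 396 CPM, and DZC libraries 915 and 330 CPM. The DZC values lay on either side of both SZC values, and they differed 2.78-fold against 1.06-fold for the SZC pair. Its log2 fold change between zones was -0.61 (SE 0.55, FDR 0.939), with a 95% interval from -1.69 to 0.48. Its direction changed to 0.31 (FDR 0.813) without DZC replicate 1, while without DZC replicate 2 it was -1.15 (FDR 0.00217). *S100B* is also a marker of Schwann cells. Of 6 Schwann or neural marker genes, 4 were tested, 3 with a positive and 1 with a negative log2 fold change. None was called by the exact or quasi-likelihood test, 1 was called by DESeq2, and 1 had an unadjusted p below 0.05 in the exact test. The summed level of the 6 genes was 253 and 313 CPM in SZCs and 239 and 44.6 CPM in DZCs, most of it from *Gfap*. Without *Gfap*, a split made after the values were seen as were those of the other marker sums, it was 12.6 and 16.5 CPM in SZCs and 14.9 and 8.20 CPM in DZCs. *Sox10* was at 6.54 to 14.6 CPM. *Ngfr* was at 4.13 and 7.54 CPM in SZCs and 0.124 and 1.12 CPM in DZCs (log2 fold change 3.18, FDR 0.0648). The part of such cells in the *S100B* levels was not tested.

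Within a library, the log2 ratio of *S100B* to *S100A1* counts does not depend on scaling. It was -1.02 and 0.38 in SZCs and -1.75 and -0.67 in DZCs. These values overlapped between zones, and the difference of 0.89 gave p = 0.667 in an exact two-sided permutation test, where 2 libraries against 2 cannot go below 0.333. The difference was 0.19 without SZC replicate 2, 0.35 without DZC replicate 1, 1.59 without SZC replicate 1 and 1.43 without DZC replicate 2, so its size depended on single libraries. In each zone replicate 1 had the lower ratio.

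*Sox5* was at 69.1 and 69.6 CPM in SZCs and 30.4 and 39.4 CPM in DZCs, for a log2 fold change of 0.99 (FDR 0.115). *Sox6* was at 59.9 and 48.2 CPM in SZCs and 27.1 and 26.4 CPM in DZCs, for a log2 fold change of 1.02 (FDR 0.0948). Both SZC libraries lay above both DZC libraries for each of these genes, without passing the threshold. *Sox9* was at 105 and 85.0 CPM in SZCs and 142 and 55.0 CPM in DZCs, with a log2 fold change of -0.05 whose sign changed with the scaling (0.38 by library totals). Of 16 tested genes in the list of SOX factors, cartilage matrix genes and terminal differentiation genes, 1 was called, *Ihh*, the signal of prehypertrophic chondrocytes. DESeq2 called 3 of the 16, *Col2a1* among them, and the quasi-likelihood test 0, and 8 had an unadjusted p below 0.05 in the exact test, as did 9.09% of all tested genes. *Ihh* had 13 and 5 counts in SZCs and 194 and 48 in DZCs, for a log2 fold change of -4.12 (FDR 0.016 in the exact test and 0.321 in edgeR's quasi-likelihood test). Without DZC replicate 1 it was -2.40 (FDR 0.0588), and the call was also lost without SZC replicate 1 (-5.01, FDR 0.249) or SZC replicate 2 (-3.58, FDR 0.552). The median of the 16 was -0.79. *Runx2*, another gene of this list, was at 1.59 and 3.66 CPM in SZCs and 7.47 and 17.2 CPM in DZCs (log2 fold change -2.23, FDR 0.0608). *Col10a1*, the collagen of hypertrophic cells, had 23 and 18 counts in SZCs and 0 and 221 in DZCs, so DZC replicate 1, which had the most *S100A1* and *S100B*, had no *Col10a1* count. A count of 0 allows up to 0.187 CPM in that library.

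*S100A4* encodes a protein that binds non-muscle myosin IIA, and is widely used as a marker of fibroblasts. It had the highest positive fold change of the 7 genes and was at 150 and 114 CPM in SZCs (3304 and 2638 counts) and at 16.4 and 75.1 CPM in DZCs (264 and 1676 counts). Both SZC libraries lay above both DZC libraries, and DZC replicate 1 was 4.57-fold below DZC replicate 2. The zone means were 132 ± 25.8 CPM in SZCs and 45.8 ± 41.5 CPM in DZCs (SD, n = 2). This gave a log2 fold change of 1.53 (SE 0.70, FDR 0.455). With each library left out it lay between 0.82, without DZC replicate 1, and 3.02, without DZC replicate 2, where the FDR was 4.08e-14. *Myh9*, which encodes the heavy chain of its myosin partner, was at 524 and 552 CPM in SZCs and 173 and 517 CPM in DZCs. Its log2 fold change was 0.64 (FDR 0.931).

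The summed level of 7 fibroblast or synovial marker genes was also higher in both SZC libraries than in both DZC libraries, at 17014 and 25209 CPM in SZCs and 4420 and 14089 CPM in DZCs, and 6 of the 7 had a positive log2 fold change, *Pdpn* being the exception. The sum was made up mostly of 3 fibrillar collagen genes. *Pdpn* was at 492 and 453 CPM in SZCs and 1103 and 762 CPM in DZCs, while the remaining 3 genes summed to 536 and 668 CPM in SZCs and 181 and 578 CPM in DZCs, a split made after the values were seen. None of the 7 was called by edgeR's exact test, the quasi-likelihood test or DESeq2, and 4 had an unadjusted p below 0.05 in the exact test, 3 of them higher in SZCs and *Pdpn* higher in DZCs. DZC replicate 1 was lowest in this sum and in *S100A4*. The part of such cells in the *S100A4* levels was not tested. Of the other marker lists, the summed level of 9 myeloid genes was 21.4 and 38.3 CPM in SZCs and 9.27 and 26.1 CPM in DZCs, with *Ptprc* at 0 to 14 counts, and that of 5 endothelial genes was at most 10.6 CPM. Of 2 tested adipocyte genes, *Fabp4*, a fatty acid carrier, was called higher in SZCs, at 12.2 and 9.44 CPM against 1.18 and 1.57 CPM in DZCs (log2 fold change 2.96, FDR 3.3e-05). The quasi-likelihood test called 0 of the 2 and DESeq2 called 1. Melanocyte genes, which mark another cell type with *S100B*, summed to at most 3.36 CPM. Lymphoid genes had at most 3 counts each. The 8 hypertrophic or bone-forming genes summed to 110 and 104 CPM in SZCs and 19.1 and 270 CPM in DZCs, mostly from *Spp1*. Without *Spp1* they summed to 2.00 and 1.46 CPM in SZCs and 0.187 and 69.2 CPM in DZCs, so these genes were near 0 outside DZC replicate 2.

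**Figure D2:**
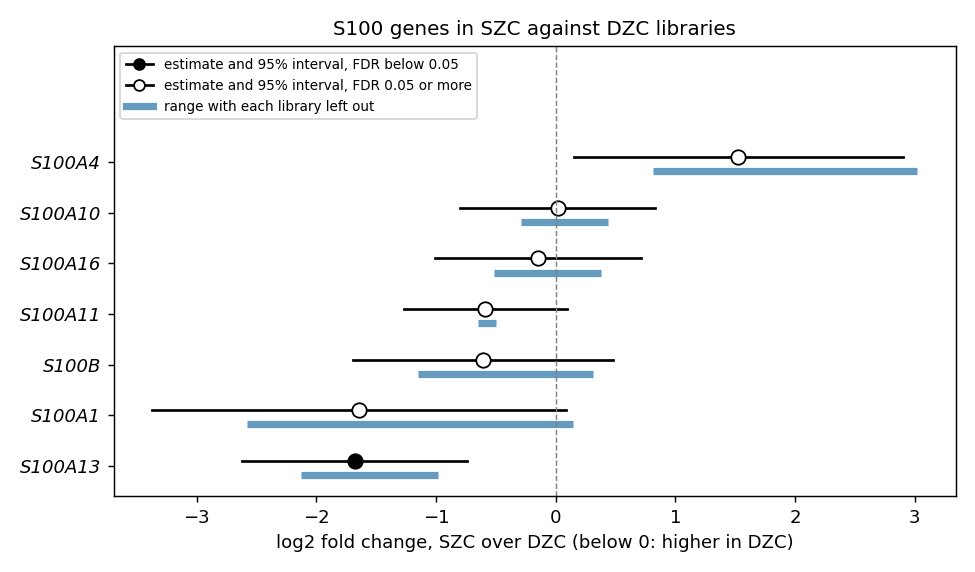
Log2 fold changes (horizontal axis, SZC over DZC) of the 7 S100 genes with 95% intervals from the standard error, not adjusted for the number of genes, and below each the range with 1 library left out. *S100A13* (filled point, -1.68) passed the FDR threshold, and the left-out ranges of *S100A1*, *S100B*, *S100A16* and *S100A10* cross 0.

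*S100A11* encodes a RAGE ligand that is released by stressed chondrocytes and promotes their hypertrophic change. It was the most even gene within zones, at 172 and 173 CPM in SZCs and 274 and 246 CPM in DZCs. Both DZC libraries lay above both SZC libraries. The log2 fold change was -0.59 (SE 0.35, FDR 0.712), with a 95% interval from -1.27 to 0.09. Leaving out each library gave values from -0.65 to -0.50, the latter without DZC replicate 1, and library totals gave -0.27. A difference of this size was within the error that 2 libraries per zone allow.

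*S100A10* is the family member that has lost calcium binding and is held in a complex with annexin A2, which carries it to the cell surface, where it binds plasminogen. It was at 203 and 256 CPM in SZCs and 172 and 283 CPM in DZCs, so that the DZC values enclosed the SZC values. The log2 fold change was 0.02 (SE 0.42, FDR 1), and its 95% interval from -0.80 to 0.83 spans differences of over 1.5-fold in both directions. Its sign changed without DZC replicate 1 (-0.29) and without SZC replicate 2 (-0.16).

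*Anxa2*, the gene of annexin A2, was at 919 and 1423 CPM in SZCs and 1372 and 1893 CPM in DZCs. Its log2 fold change was -0.48 (FDR 0.938). The log2 ratio of *S100A10* to *Anxa2* counts within a library was -2.18 and -2.47 in SZCs and -2.998 and -2.74 in DZCs. The zones did not overlap in this ratio, which was higher in SZCs by 0.55, and the exact two-sided permutation p of 0.333 was the smallest that 2 libraries against 2 can give. With each library left out the difference lay between 0.40 and 0.69. *Ahnak*, the scaffold that binds this complex, was at 1356 and 1144 CPM in SZCs and 631 and 1345 CPM in DZCs, for a log2 fold change of 0.34 (FDR 0.998).

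*S100A16*, a broadly expressed member, was at 66.3 and 48.6 CPM in SZCs and 83.0 and 44.5 CPM in DZCs. Its zones overlapped, with the DZC values again on either side. The log2 fold change was -0.15 (SE 0.44, FDR 1), with a 95% interval from -1.01 to 0.71, and its sign changed to 0.24 by library totals, 0.37 without DZC replicate 1 and 0.053 without SZC replicate 2.

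Of the 30 listed partners and receptors of S100 proteins, 23 were tested. None passed in edgeR's exact test, its quasi-likelihood test or DESeq2, and 3 of the 23 had an unadjusted p below 0.05 in the exact test, a share near the 9.09% of all tested genes. Their median log2 fold change was -0.03, close to that of all tested genes. *Ager*, the gene of RAGE, had only 14 to 36 counts per library, at 0.871 to 1.64 CPM. *Tlr4*, a receptor for several released S100 proteins, had 72 and 111 counts in SZCs and 2 and 27 in DZCs, with a log2 fold change of 2.55 and an FDR of 0.245. The other two with an unadjusted p below 0.05 had the opposite sign, *Anxa5*, an annexin gene, at -1.06 (FDR 0.16) and *Alcam*, a cell adhesion receptor gene, at -1.25 (FDR 0.431). *Cacybp*, the gene of the calcyclin-binding protein, was at 55.5 and 67.9 CPM in SZCs and 84.0 and 95.4 CPM in DZCs. Its log2 fold change was -0.54 (FDR 0.775).

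Other calcium-binding proteins with EF hands were used for comparison. Of 36 tested, 1 was called by edgeR's exact test, *Efhd1*, a mitochondrial calcium sensor. It was at 129 and 164 CPM in SZCs and 580 and 376 CPM in DZCs, for a log2 fold change of -1.71 (FDR 0.00363 in the exact test and 0.251 in edgeR's quasi-likelihood test). The call was lost without SZC replicate 1 (-1.55, FDR 1) or SZC replicate 2 (-1.90, FDR 0.436). This size was close to that of *S100A13*. The median of the 36 was -0.14.

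In all, the 7 S100 genes took 0.211% and 0.153% of the counts in SZCs and 0.350% and 0.173% in DZCs. The exact (Clopper–Pearson) 95% intervals of these shares were no wider than from 0.347% to 0.352%, and reflect counting alone, because reads from an amplified library do not each stand for a separate molecule. The SZC values overlapped the DZC values (exact two-sided permutation p = 0.667). *S100A1* supplied 44.6% and 22.6% of them in SZCs and 64.8% and 32.8% in DZCs. *S100B* was steadier, with 22.0% and 29.4% in SZCs and 19.2% and 20.6% in DZCs. *S100A4* supplied 7.86% and 8.45% in SZCs and 0.345% and 4.69% in DZCs. These are shares of reads and not of transcripts, since counts were not divided by transcript length, and for the same reason the levels of different S100 genes are not ranked here.

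**Figure D3:**
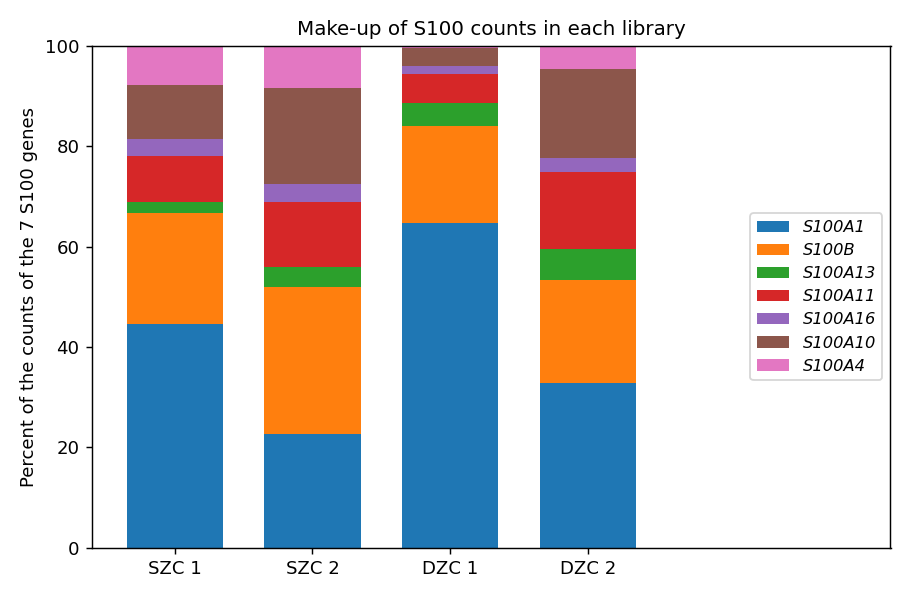
Percent of the counts of the 7 S100 genes (vertical axis) that each gene supplied in the 4 libraries. *S100A1* supplied 64.8% in DZC replicate 1 and 22.6% to 44.6% in the other 3, and *S100A4* 0.345% in DZC replicate 1.

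DZC replicate 1 was the highest library for 5 of the 7 genes and the lowest for the other two, *S100A4* and *S100A10*. Over all tested genes it was the highest or lowest for 72.8%. By library totals it was highest for 3 and lowest for 2 of the 7 (71.4%), against 77.8% of all tested genes. The median fold between the DZC libraries was 2.23 for the 7 genes and 1.48 over all tested genes, or 1.88 and 1.59 by library totals. Between the SZC libraries it was 1.26 and 1.19. Without this library the log2 fold changes of *S100A1*, *S100B* and *S100A16* turned from negative to positive, that of *S100A10* turned from positive to negative, and those of *S100A13*, *S100A11* and *S100A4* kept their direction.

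Genes with the most similar pattern over the 4 libraries were sought among 7758 named genes with a mean of at least 10 CPM, by the Euclidean distance between log2(CPM + 1) values centred on each gene's mean. The nearest to *S100A13* were *Aplp1* (distance 0.24), *Nf2* (0.29) and *C15H11orf71* (0.32), against a median distance of 1.73. *Aplp1* was at 29.9 and 39.6 CPM in SZCs and 155 and 58.4 CPM in DZCs. The nearest to *S100B* were *Extl1* (0.09), *Lin37* (0.10) and *Sgf29* (0.10), against a median of 1.11. The nearest to *S100A1* were *Magix* (0.62), *Plekho1* (0.98) and *Hspb6* (0.98), against a median of 2.41. Distances were not scaled to the spread of each gene, so they are not compared between S100 genes. *Hspb6* was at 198 and 167 CPM in SZCs and 791 and 200 CPM in DZCs. With only 4 libraries, many genes share a pattern, and the distances are a description.

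Of the 7 S100 genes, 6 lie on chromosome 3 with other S100A genes, and *S100B* lies on chromosome 1. The gene order was read from RefSeq's table for ARS-UCD2.0, a later build than that of the counts, in which 7 of the 8 names were matched. *S100A1* and *S100A13* are next to each other there, without overlap, and had log2 fold changes of -1.64 and -1.68. *S100A16* lies beyond *S100A14* on the same side, and had one of -0.15. *S100A4* is next to *S100A3*, which had only 17 and 29 counts in SZCs and 3 and 11 in DZCs and a log2 fold change of 1.52 (FDR 0.668). *S100A11* and *S100A10* are neighbours at the far end, with -0.59 and 0.02. Among 13 tested genes of other families that lie near S100 genes, 0 were called by edgeR's exact test, its quasi-likelihood test or DESeq2, 0 had an unadjusted p below 0.05 in the exact test, and the median log2 fold change was -0.13. Reads were counted without regard to strand, so where genes overlap on opposite strands their counts cannot be separated.

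**Figure D4:**
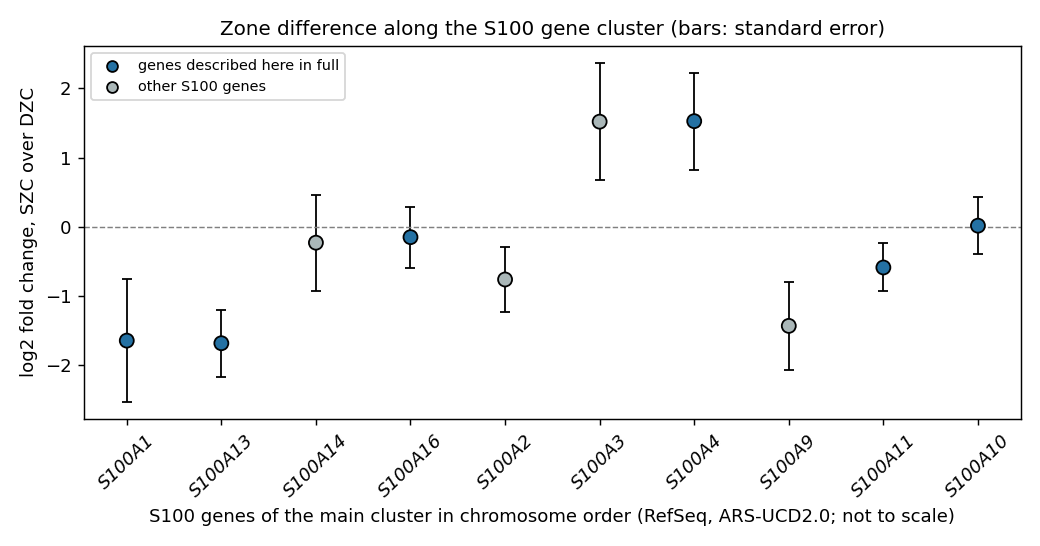
Log2 fold change (vertical axis, SZC over DZC, bars are standard errors) of the tested S100 genes of the cluster in chromosome order. *S100A1* and *S100A13* sit near -1.64 and -1.68, *S100A3* and *S100A4* at 1.52 and 1.53, and *S100A13* is the one gene shown that passed the FDR threshold.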

How the data were processed

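RNA of cultured SZCs and DZCs was read from a single end after amplification with a kit for very small inputs, 2 libraries per zone. The authors aligned reads to Ensembl build UMD 3.1 with STAR 2.5.2b and deposited raw counts per gene, made for an unstranded library. They also deposited their own comparison, log2 fold changes and adjusted p-values (FDR), from which only gene symbols were used. The 4 ATAC-Seq samples were not analysed here.

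Counts were scaled by TMM and compared by the exact test in edgeR 4.0.16 (R 4.3.3), with an FDR threshold of 0.05, after the study's methods. The filter on low counts, filterByExpr, was chosen here. Standard errors follow from the gene-wise dispersion. Zones and replicate numbers came from the labels. Replicates of a zone differed by more than sampling noise (chi-square per degree of freedom 61.9 for SZCs and 302.5 for DZCs). Alternatives were the quasi-likelihood test with and without a replicate block, DESeq2 1.42.0, other filters, scalings and dispersions, and each library left out. Ratios used counts + 0.5. The code was tested on simulated data. Members and lists were chosen with earlier results of these data known. Named genes are the members, the other S100 genes (those too low to test by their counts alone), called genes of each list, a few fixed partners, and the 3 nearest patterns. Some items of the rule are not reported here. *Myh9*, *Tlr4*, *Fgf1*, *Il1a*, *Pdpn*, *Anxa5*, *Alcam*, *Ptprc*, *Spp1*, *Acan*, *Hapln1*, *Runx2* and the Schwann cell markers were named after their values were seen.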

Additional observations from a re-analysis of the deposited data

How the results depend on the processing

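All 12 alternatives kept the direction of *S100A4*, *S100A11* and *S100A13*. For *S100A13* the call was lost with edgeR's quasi-likelihood test (log2 fold change -1.68, FDR 0.335), with the replicate block in that test (-1.57, FDR 0.0742) and with library totals (-1.27, FDR 0.0798), where 0 S100 genes were called, 0 of them higher in DZCs. The call was also lost without SZC replicate 1 or SZC replicate 2. With each library left out the log2 fold change of *S100A13* lay between -2.13 and -0.99. The same ranges were -2.58 to 0.14 for *S100A1*, 0.82 to 3.02 for *S100A4*, -0.29 to 0.44 for *S100A10*, -0.52 to 0.37 for *S100A16* and -1.15 to 0.31 for *S100B*. The number of S100 genes called then lay between 0 and 4, with 0 to 1 higher in SZCs and 0 to 3 higher in DZCs. The highest counts came without DZC replicate 2, where DZC replicate 1 stood alone and was assumed to vary as the SZC libraries do. By library totals, which moved the median of all genes by 0.30, *S100A16* was at 0.24. Over all genes 377 were called, 0 with the quasi-likelihood test (1126 at an unadjusted p below 0.05), so 0 in either direction, and 58 to 2725 with a library left out (52 to 1607 higher in SZCs, 6 to 1118 higher in DZCs). By library totals 44 were higher in DZCs. The cause was not tested.

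The replicate numbers are shared by the zones, but no label says that they mark a common animal. Over 12857 genes, the deviations of libraries with the same number from the mean of their zone correlated at 0.42. With the replicate block 347 genes and 0 S100 genes were called. The call of *Efhd1* was lost (-1.68, FDR 0.0602), while *Ngfr* (FDR 0.0274) and *Runx2* (-2.23, FDR 0.0231) passed. Some log2 fold changes of genes outside the 7 changed sign. With the replicate block *S100A14* was at 0.040 and *Sox9* at 0.10, and by library totals *S100A14* was at 0.25 and *Sox9* at 0.38. With each library left out the ranges were -0.90 to 1.11 for *S100A14*, -0.56 to 0.79 for *Sox9*, -0.10 to 1.00 for *Ahnak* and -3.43 to 7.23 for *Col10a1*.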

Other observations

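Other S100 genes were read from the same fit. Of 10 found in the count table, 4 were tested and 0 were called by edgeR's exact test, its quasi-likelihood test or DESeq2, with 1 at an unadjusted p below 0.05 in the exact test. *S100A9*, which in neutrophils and monocytes forms calprotectin with *S100A8*, had 1707 and 2054 counts in SZCs, with 5687 and 2095 in DZCs. *S100A8* had only 7 and 3 counts in SZCs and 1 and 5 in DZCs, and *S100A12*, the third gene of that myeloid group, had 18 and 5 in SZCs and 1 and 4 in DZCs. The levels of *S100A9* were 77.6 and 88.5 CPM in SZCs and 354 and 93.9 CPM in DZCs. Its log2 fold change was -1.43 (FDR 0.408), -0.17 without DZC replicate 1 (FDR 0.915) and -2.08 without DZC replicate 2 (FDR 9.6e-11, with DZC replicate 1 alone assumed to vary as the SZC pair does). DZC replicate 1, the library with most *S100A9*, had the lowest summed level of the 9 myeloid markers, 9.27 CPM, and 0 counts of *Ptprc*, which marks all leukocytes. The part of such cells in the *S100A9* levels was not tested.

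*S100A2* was at 52.4 and 31.4 CPM in SZCs and 49.9 and 92.0 CPM in DZCs, for a log2 fold change of -0.76 (FDR 0.758). Single libraries moved this value, to -1.13 without DZC replicate 1 (FDR 0.0224), -0.24 without DZC replicate 2 (FDR 0.659), -1.18 without SZC replicate 1 (FDR 1) and -0.44 without SZC replicate 2 (FDR 1). *S100A14*, an epithelial S100 gene that lies between *S100A13* and *S100A16*, was at 117 and 66.9 CPM in SZCs and 172 and 42.6 CPM in DZCs, for a log2 fold change of -0.23 (FDR 1). Replicate 1 was the higher library of each zone for *S100A14*, as it was for *S100A1*, *S100A16* and, on another chromosome, *S100B*. *S100A5* and *S100G* had at most 4 and 2 counts in any library, and *S100A7* and *S100Z* had 0 in every library.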
